A study of Drosophila melanogaster with 4 samples.

Results

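The genes described here are 10 members of the phototransduction cascade of the fly eye, measured in nuclear RNA from heads of Drosophila melanogaster. They were chosen by name from a table of 17137 genes, and comprise norpA, trp, trpl, inaD, inaC, ninaC, rdgA, Arr1, Arr2 and Galphaq. All 10 had a row in the table, and all 10 were among the 8246 genes abundant enough to be tested.

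In a fly photoreceptor, light converts rhodopsin to its active form, which switches on a Gq protein. The alpha subunit of that protein, encoded by Galphaq, activates the phospholipase C encoded by norpA, and the cleavage of a membrane phosphoinositide leads to the opening of the calcium-permeable channels TRP and TRPL. The scaffold INAD holds phospholipase C, TRP and the eye protein kinase C (encoded by inaC) together, the diacylglycerol kinase RDGA and the myosin kinase NINAC take part in shaping and ending the response, and the arrestins Arr1 and Arr2 bind and silence active rhodopsin. Most of these genes are used mainly in photoreceptors, whereas norpA and Galphaq are also used in other cells.

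The VAChT:VGlut group carried a VAChT:VGlut split-Gal4 driver and the VAChT:VGAT group a VAChT:VGAT split-Gal4 driver, each with UAS-UNC84, and both were untreated flies of 10 days. A split-Gal4 driver divides the transcription factor Gal4 between a pair of promoters, so that it works only in cells that use both, and UNC84 is a tag in the nuclear envelope. The promoters were those of genes for vesicular transporters, of acetylcholine (VAChT) with glutamate (VGlut) or with GABA (VGAT), and tagged nuclei were pulled down from pooled frozen heads with INTACT before poly(A) RNA was sequenced. Each group had 2 libraries, and the labels do not say whether these came from separate collections of flies, so that p-values measure the spread between these libraries, which may be technical.

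The libraries held 2023040 and 2556988 counts in VAChT:VGlut, and 1937871 and 1490390 in VAChT:VGAT. The labels call the nuclei neuronal, and all 8 neuronal markers examined were detected in every library, but so were markers of glia, fat body and muscle. The photoreceptor opsin gene ninaE, which encodes the main rhodopsin of the outer photoreceptors, was the most abundant of the 8246 tested genes. It had 15989.6 and 16204 CPM (counts scaled to a library total of 1000000 after TMM scaling) in the VAChT:VGlut libraries, against 12499.9 and 12769 CPM in the VAChT:VGAT libraries. Of the driver genes, VGlut had 379 ± 1.42 CPM in VAChT:VGlut and 255 ± 18.3 CPM in VAChT:VGAT (SD, n = 2 each), and Gad1, the gene of the GABA-making enzyme, had 651 and 675 CPM in VAChT:VGlut, against 1233 and 1246 CPM in VAChT:VGAT (both past the test), whereas VGAT did not pass the test (edgeR adjusted p = 0.57). No untagged or input library was analysed here, so the purity of the tagged nuclei was not measured. In these bulk libraries fewer nuclei of a type and less RNA per nucleus cannot be told apart.

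Of the 10 cascade genes, 7 were higher in VAChT:VGlut (edgeR adjusted p under 0.05), and none was lower. With limma-voom 7 were higher and with DESeq2 6, and none was lower with either. At an unadjusted edgeR p under 0.05, 9 were higher and 0 were lower. The 7 genes were norpA, trp, trpl, ninaC, rdgA, Arr1 and Arr2, while inaD, inaC and Galphaq did not pass the test. Of all tested genes, 6.22% were higher in VAChT:VGlut and 5.54% were lower by the same test, and 11.8% differed in either direction. Every cascade gene averaged over 100 CPM, and of the 2163 tested genes at that level 18.8% were higher in VAChT:VGlut and 10.7% were lower. The differences were small, between 1.06-fold and 1.38-fold for the 7 genes. The median log2 fold change of the 10 genes was 0.27, against -0.01 over all tested genes. Together the 10 genes took 1.68% and 1.69% of all counts in the VAChT:VGlut libraries, against 1.44% of all counts in each VAChT:VGAT library. The edgeR fit put the biological coefficient of variation at 2.18% for these libraries. With it set to 0.1 in a likelihood ratio test, 0 of the 10 genes passed after adjustment and 5 had an unadjusted p under 0.05. With library size alone as scaling the counts over all genes were 401 higher and 574 lower, against 513 and 457 with TMM, and 6 cascade genes were higher. Without the second VAChT:VGlut library 279 of all genes were higher and 234 lower, and without the first VAChT:VGAT library 321 were higher and 292 lower, with 6 cascade genes higher each time.

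**Figure D1:**
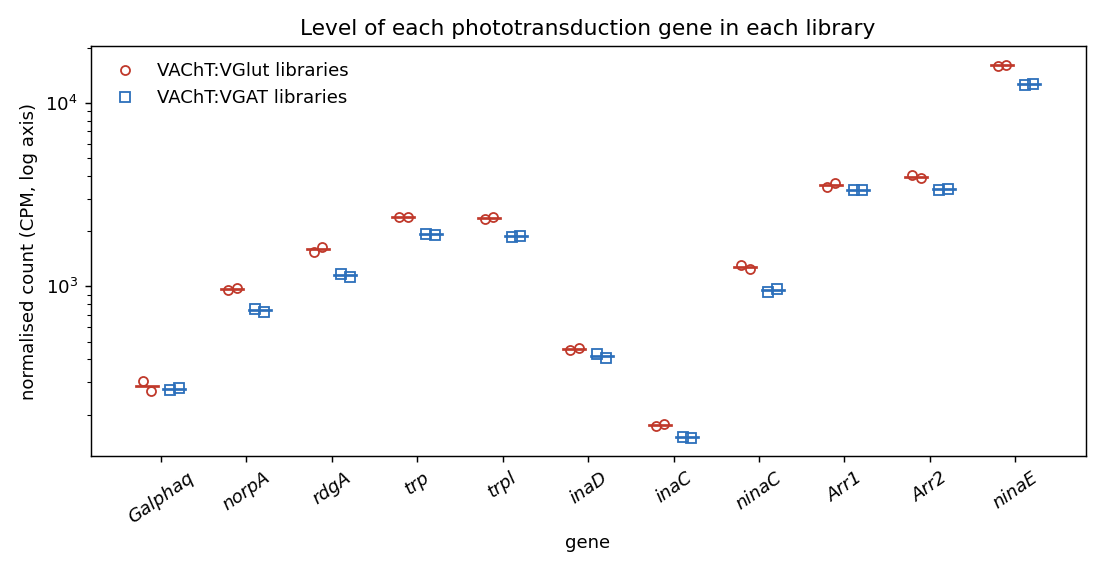
Normalised counts (CPM, log axis) of the 10 cascade genes and ninaE. Each open symbol is one library (circles VAChT:VGlut, squares VAChT:VGAT) and each bar the mean of the 2 libraries of a genotype; the genotypes overlap only for Galphaq.

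Both libraries of VAChT:VGlut lay above both libraries of VAChT:VGAT in 9 of the 10 genes, the exception being Galphaq. Of all tested genes, 23.6% had this order of libraries. The counts behind the values ranged from 226 for inaC in one VAChT:VGAT library to 9829 for Arr2 in one VAChT:VGlut library. Counting error alone at the lowest count of each gene was 6.65% for inaC, 4.88% for Galphaq and 4.03% for inaD, the 3 genes that did not pass the test. It was at most 3.03% for each of the 7 genes that passed. These errors cover counting only, since amplified copies of a fragment are not independent molecules.

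The cascade starts from the G protein. Galphaq (FBgn0004435; dm6 chromosome 2R, 12612740 to 12623197, plus strand) had 304 and 268 CPM in VAChT:VGlut, against 274 and 279 CPM in VAChT:VGAT. The VAChT:VGlut libraries lay on either side of the VAChT:VGAT libraries, and their gap of 13.6% exceeded the difference between the group means, 3.61%. The log2 fold change was 0.04, with a 95% interval of -0.09 to 0.18 (edgeR adjusted p = 0.785), and leaving out the first VAChT:VGlut library turned it to -0.04. Of the exon bases of Galphaq, 55.9% were its own. The rest were shared with CG45086 on the same strand, which had 0 counts in every library, so reads from the shared bases were assigned to neither gene.

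The phospholipase C gene norpA (FBgn0262738; chromosome X, 4322626 to 4365408, plus strand) had 950.4 and 979.7 CPM in VAChT:VGlut, against 757 and 723 CPM in VAChT:VGAT. The gap between the genotypes was several times the gap within either. The log2 fold change was 0.38 (SE 0.04, edgeR adjusted p = 8.58e-11). For rdgA (FBgn0261549; chromosome X, 8907068 to 9029476, plus strand), whose kinase removes the diacylglycerol that phospholipase C makes, the values were 1548 and 1634 CPM in VAChT:VGlut, against 1167 and 1132 CPM in VAChT:VGAT. This was the largest fold change of the 10 genes, 1.38-fold (log2 0.47, SE 0.04, edgeR adjusted p = 7.37e-17).

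Both channel genes were higher in VAChT:VGlut. TRP is the main light-activated channel and TRPL a related channel that opens beside it. The gene trp (FBgn0003861; minus strand of chromosome 3R, 29914521 to 29920289) had 2390.3 and 2384 CPM in VAChT:VGlut, against 1938 and 1905 CPM in VAChT:VGAT. The gene trpl (FBgn0005614; chromosome 2R, 9753697 to 9765518, plus strand) had 2328 and 2380.5 CPM in VAChT:VGlut, against 1867 and 1877 CPM in VAChT:VGAT. In both genes the libraries of a genotype differed by less than 3% and the genotypes did not overlap. The log2 fold changes were 0.31 (SE 0.03, edgeR adjusted p = 1.24e-12) for trp and 0.33 (SE 0.03, edgeR adjusted p = 1.85e-13) for trpl. Their difference, -0.02 on the log2 scale (95% interval -0.11 to 0.07), included 0.

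The channel genes were also compared with each other within a library. The ratio of trp counts to trpl counts was 1.03 and 1.001 in VAChT:VGlut, against 1.04 and 1.015 in VAChT:VGAT. Per exonic base the ratio was 0.963 and 0.9397 in VAChT:VGlut, against 0.974 and 0.953 in VAChT:VGAT, so trpl had slightly more counts per base in all 4 libraries. Coverage along the genes was not examined, so this small offset does not rank the transcripts.

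The scaffold gene and the genes of the kinases it brings together gave unlike results. The kinase-myosin gene ninaC (FBgn0002938; chromosome 2L, 7377702 to 7384344, plus strand) had 1308 and 1247 CPM in VAChT:VGlut, against 934 and 968 CPM in VAChT:VGAT. The genotypes were far apart, and the log2 fold change of 0.43 (SE 0.04, edgeR adjusted p = 6.61e-14) was second to that of rdgA. The scaffold gene inaD (FBgn0001263; minus strand of chromosome 2R, 22855688 to 22858794) had 451 and 461 CPM in VAChT:VGlut, against 426 and 408 CPM in VAChT:VGAT. Both VAChT:VGlut libraries were the higher ones by a narrow margin, and the log2 fold change of 0.13 (SE 0.06, edgeR adjusted p = 0.142) did not pass the test. The protein kinase C gene inaC (FBgn0004784; chromosome 2R, 16898535 to 16901575, plus strand), the least abundant of the 10 in CPM, had 174 and 177 CPM in VAChT:VGlut, against 151 and 149.9 CPM in VAChT:VGAT. The genotypes did not overlap, but the log2 fold change of 0.22 carried an SE of 0.09 (edgeR adjusted p = 0.0825). The 95% interval was 0.02 to 0.24 for inaD, which overlapped those of Arr1 and Arr2 alone among the genes that passed, and 0.05 to 0.40 for inaC, which overlapped those of all 7.

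The arrestin genes were the most abundant of the 10. Arr2 encodes the major arrestin of the photoreceptor and Arr1 a lesser one. Arr2 (FBgn0000121; minus strand of chromosome 3L, 8647261 to 8648936) had 4043 and 3889 CPM in VAChT:VGlut, against 3374 and 3391 CPM in VAChT:VGAT. The genotypes were clearly apart, with a log2 fold change of 0.23 (SE 0.03, edgeR adjusted p = 7.24e-10). Arr1 (FBgn0000120; chromosome 2L, 18078269 to 18081307, plus strand) had 3484 and 3664 CPM in VAChT:VGlut, against 3371 and 3361 CPM in VAChT:VGAT. Its VAChT:VGlut libraries differed by 5.18%, or 3.18 times the counting error of that gap, and the group means differed by 6.18%. The log2 fold change was 0.09 (SE 0.03, edgeR adjusted p = 0.0278). Left out in turn, the second VAChT:VGlut library and each VAChT:VGAT library ended the call (edgeR adjusted p = 0.294, 0.170 and 0.163), as did library size alone as scaling (edgeR adjusted p = 0.260) and DESeq2 (DESeq2 adjusted p = 0.0787).

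The arrestins thus differed in how far they moved. The log2 fold change of Arr2 exceeded that of Arr1 by 0.14, with a 95% interval of 0.06 to 0.22 that treats the genes as independent. Counts of Arr2 per count of Arr1 were 1.16 and 1.06 in VAChT:VGlut, against 1.001 and 1.009 in VAChT:VGAT. The ratio was thus higher in both VAChT:VGlut libraries, but the VAChT:VGlut libraries differed from each other by more than the nearer of them differed from VAChT:VGAT.

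**Figure D2:**
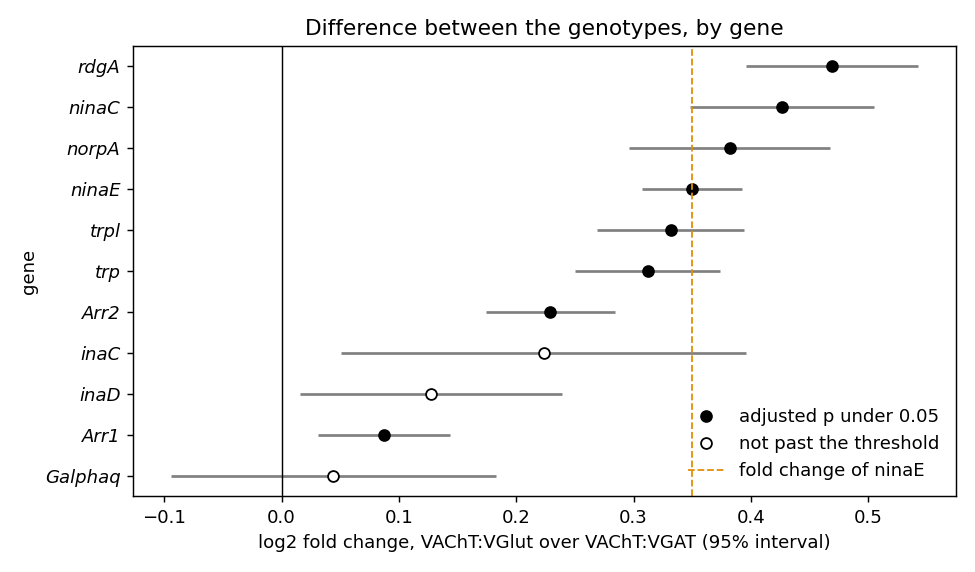
Log2 fold change of each cascade gene and ninaE, VAChT:VGlut over VAChT:VGAT, with 95% intervals from the edgeR fit; filled points passed the test. The values run from 0.04 for Galphaq to 0.47 for rdgA, and the dashed line marks the 0.35 of ninaE.

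Levels can be ordered between genes only per exonic length. In VAChT:VGlut the order in CPM per kilobase was Arr2 at 2564, Arr1 at 1443, trpl at 605, trp at 575, ninaC at 235, inaD at 196, rdgA at 122.5, norpA at 116 and inaC at 74.6. The arrestins stood well above the channels, and the channels above the kinases and the scaffold. In VAChT:VGAT the order of the arrestins and channels was the same, after which inaD had 179 CPM per kilobase, ninaC 175, norpA 89.2, rdgA 88.5 and inaC 64.0. The neighbours ninaC and inaD, and rdgA and norpA, thus stood in the other order there, but in VAChT:VGAT the libraries of each pair overlapped. Galphaq was last at 41.4 CPM per kilobase in VAChT:VGlut and 40.0 in VAChT:VGAT. Over the bases it shared with no other gene, Galphaq had 74.1 CPM per kilobase in VAChT:VGlut and 71.5 in VAChT:VGAT, close to inaC.

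Since ninaE was also higher in VAChT:VGlut (by 0.35 on the log2 scale, SE 0.02, edgeR adjusted p = 7.13e-22), each cascade gene was set against ninaE within the same library, a ratio that no scaling factor affects. For norpA there were 5.94 and 6.05 counts per 100 counts of ninaE in VAChT:VGlut, against 6.055 and 5.66 in VAChT:VGAT. For trp there were 14.9 and 14.7 per 100 in VAChT:VGlut, against 15.5 and 14.9 in VAChT:VGAT. In neither gene were the genotypes separate. The fold changes of norpA, trp, trpl, inaC and ninaC differed from that of ninaE by intervals that included 0. That of trp minus that of ninaE, for example, was -0.04 (95% interval -0.11 to 0.04). The library ratios of trpl, inaC and ninaC did not overlap, however. For trpl there were 14.56 and 14.69 per 100 in VAChT:VGlut, against 14.94 and 14.7 in VAChT:VGAT. For inaC there were 1.086 and 1.094 in VAChT:VGlut, against 1.207 and 1.174 in VAChT:VGAT. The ninaC ratio was higher in VAChT:VGlut, at 8.179 and 7.695, against 7.47 and 7.578 in VAChT:VGAT. In trpl and ninaC the nearest libraries of the genotypes differed by less than the counting error at the gene's lowest count, 1.88% and 2.62%. The share of all tested genes whose ratios did not overlap was not counted.

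The remaining cascade genes had intervals against ninaE that excluded 0. For rdgA there were 9.68 and 10.1 counts per 100 of ninaE in VAChT:VGlut, against 9.34 and 8.87 in VAChT:VGAT, and its log2 fold change exceeded that of ninaE by 0.12 (95% interval 0.04 to 0.20). This order changed when the trend of fold change with exonic length, fitted over all tested genes of the same libraries, was removed. Then rdgA stood at 0.30 and ninaE at 0.43. Each of the 10 cascade genes then lay below ninaE, the nearest being ninaC at 0.35. For Arr1 there were 21.8 and 22.6 per 100 in VAChT:VGlut, against 27.0 and 26.3 in VAChT:VGAT. Relative to ninaE Arr1 was thus lower in VAChT:VGlut, whereas on the TMM scale it was higher there, a call that library size alone ended (edgeR adjusted p = 0.260). The log2 fold changes of Arr1, Arr2, inaD and Galphaq were below that of ninaE by 95% intervals that excluded 0, and the differences were -0.26, -0.12, -0.22 and -0.31. These intervals treat genes as independent and rest on the spread estimated from the same 4 libraries. An exact permutation test of 2 libraries against 2 cannot give a two-sided p below 0.333, and none was run. Over the 10 genes the median log2 ratio to ninaE was -0.08, and relative to the summed counts of 11 photoreceptor identity genes it was 0.07, so the sign of this median depends on the gene set used as denominator. That sum rests largely on its most abundant genes. In the first VAChT:VGlut library chp had 730 and eys 291 of the summed 1612 CPM. Their log2 fold changes were 0.18 and 0.05, against a median of 0.31 over the 11 genes.

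**Figure D3:**
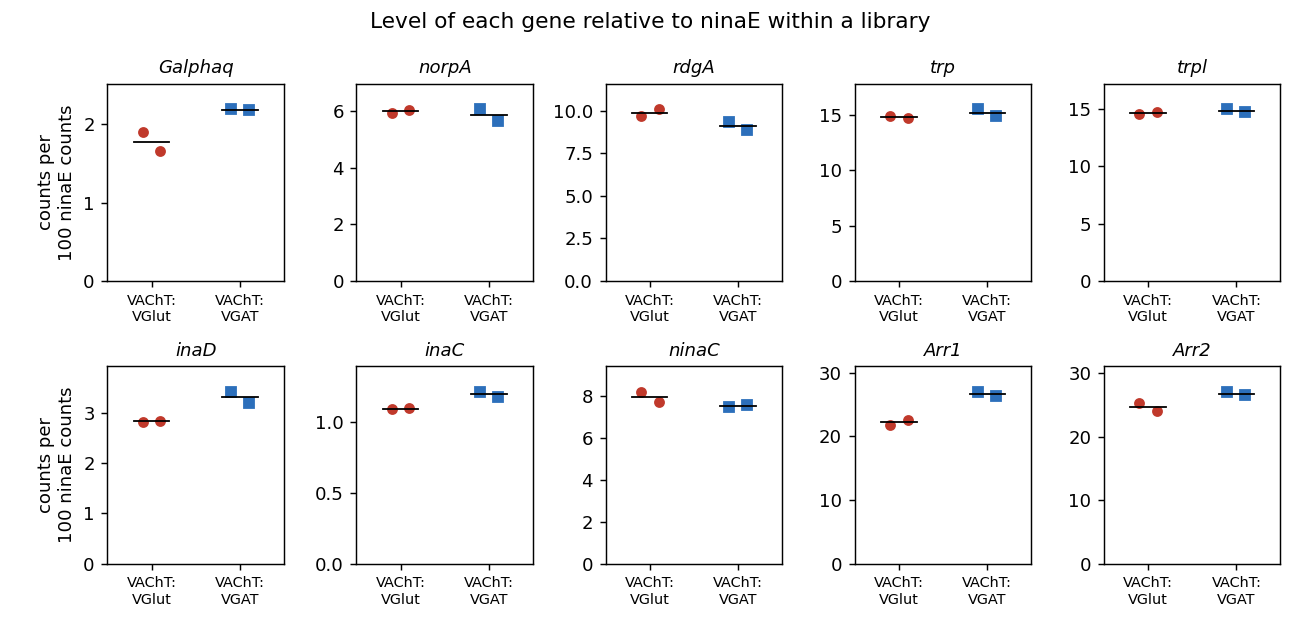
Counts of each cascade gene per 100 counts of ninaE in each library, with group means as bars and each axis starting at 0. Arr1 sits at 21.8 and 22.6 in VAChT:VGlut, below its 27.0 and 26.3 in VAChT:VGAT, while the trp and norpA libraries of the genotypes overlap.

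The remaining genes of the visual pathway were read from a list of 41 others, of which 36 were tested. Of these, 7 were higher in VAChT:VGlut, 6 were lower and 23 did not pass, and the median over the 36 was 0.08 on the log2 scale. The number lower was 3 without the first VAChT:VGlut library, 1 without the second, and 3 without the first VAChT:VGAT library. With DESeq2 4 were higher and 3 were lower, 7 of the 36 having no adjusted p.

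The other subunits of the G protein stood apart from each other. Ggamma30A, the gamma subunit of the eye G protein, had 3598 ± 68.5 CPM in VAChT:VGlut and 3117 ± 21.0 CPM in VAChT:VGAT (SD, n = 2 each), a log2 fold change of 0.21 (edgeR adjusted p = 1.87e-08). Its beta partner Gbeta76C had 482 ± 2.10 CPM in VAChT:VGlut and 480.1 ± 21.6 CPM in VAChT:VGAT (SD, n = 2 each), a log2 fold change of 0.01 (edgeR adjusted p = 0.935). After the trend of fold change with exonic length was removed, Ggamma30A did not pass (edgeR adjusted p = 0.465).

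Of the other pathway genes that were higher, Cam, which encodes the calcium sensor calmodulin, had 4558 ± 151 CPM in VAChT:VGlut and 3499 ± 25.8 CPM in VAChT:VGAT (SD, n = 2 each), a log2 fold change of 0.38 (edgeR adjusted p = 9.83e-19). The gene rtp (retinophilin), whose protein works with NINAC, had a log2 fold change of 0.32 (edgeR adjusted p = 0.0005). Its call ended without the first VAChT:VGlut library (edgeR adjusted p = 0.0522) and with DESeq2 without independent filtering (DESeq2 adjusted p = 0.0623). The sodium/calcium exchanger gene Calx had a log2 fold change of 0.19 (edgeR adjusted p = 0.032). The Calx call ended with library size alone (edgeR adjusted p = 0.103), without the second VAChT:VGlut library and without the first VAChT:VGAT library (edgeR adjusted p = 0.313 and 0.495). Camta, a calmodulin-binding transcription factor, had a log2 fold change of 0.31 (edgeR adjusted p = 0.00592), and its call ended without the same libraries (edgeR adjusted p = 0.116 and 0.135). Both calls also ended with DESeq2 (DESeq2 adjusted p = 0.221 for Calx and 0.11 for Camta) and after the length trend was removed, where Calx stood at 0.05 (edgeR adjusted p = 0.712) and Camta at 0.17 (edgeR adjusted p = 0.274). The locus inaF-B, which encodes a partner of TRP, had 57 and 49 counts in VAChT:VGlut and 10 and 20 counts in VAChT:VGAT, but 13.4% of its exon bases were its own. Its log2 fold change was 1.43 (edgeR adjusted p = 0.000381), and 0.82 without the first VAChT:VGAT library (edgeR adjusted p = 0.156). The lipid transfer gene rdgB, which resupplies the phosphoinositide, did not pass (log2 fold change 0.16, edgeR adjusted p = 0.0683). It passed with the replicate number as a block (edgeR adjusted p = 0.0279) and without the first VAChT:VGAT library (edgeR adjusted p = 0.0334).

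Of the 6 opsin genes beside ninaE, 3 were lower in VAChT:VGlut and 3 did not pass. Rh5, an opsin of inner photoreceptors, had 187 ± 9.01 CPM in VAChT:VGlut and 245 ± 8.35 CPM in VAChT:VGAT (SD, n = 2 each), a log2 fold change of -0.39 (edgeR adjusted p = 8.15e-05). Rh2, the opsin of the ocelli, and Rh3, another inner opsin, were lower too (log2 fold changes -0.31 and -0.16, edgeR adjusted p = 0.011 and 0.0225). The Rh2 and Rh3 calls ended on leaving out any single library, with DESeq2, and after the length trend was removed, where Rh3 stood at -0.06 (edgeR adjusted p = 0.586). Rh4 and Rh6, the remaining inner opsins, did not pass (log2 fold changes 0.10 and 0.06, edgeR adjusted p = 0.215 and 0.613). After the length trend was removed Rh4 passed as higher, at 0.20 (edgeR adjusted p = 0.00261). Among chromophore genes, ninaB, which encodes the carotenoid-cleaving enzyme, was lower in VAChT:VGlut by edgeR, with a log2 fold change of -0.37 (adjusted p = 0.000696). The pigment-cell retinol dehydrogenase gene Pdh had a log2 fold change of -0.18 (edgeR adjusted p = 0.000107). The scavenger receptor gene santa-maria had -0.28 (edgeR adjusted p = 0.0388). Each of these 3 calls ended without the second VAChT:VGlut library (edgeR adjusted p = 0.07, 0.0523 and 0.309), and that of santa-maria also without the first library of either genotype (edgeR adjusted p = 0.101 without that of VAChT:VGlut and 0.547 without that of VAChT:VGAT). After the length trend was removed Pdh stood at -0.04 and did not pass (edgeR adjusted p = 0.612), and with DESeq2 santa-maria did not pass (DESeq2 adjusted p = 0.304).

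The cascade genes were then set beside lists of other cell types. Among 11 photoreceptor identity genes, which include no cascade gene, 3 were higher in VAChT:VGlut, none was lower and all 11 had a positive fold change, with a median of 0.31 on the log2 scale. The 3 were chp, which encodes the rhabdomere protein chaoptin, prom (prominin) and Hdc, the enzyme that makes the photoreceptor transmitter histamine. With DESeq2 0 of the list passed, 6 having no adjusted p, and 3 had an unadjusted p under 0.05; limma-voom gave 3. The chp call ended without the first VAChT:VGAT library (edgeR adjusted p = 0.0896) and after the length trend was removed (edgeR adjusted p = 0.144). The prom call ended with library size alone (edgeR adjusted p = 0.0676), after the length trend was removed (edgeR adjusted p = 0.124), and without the first library of either genotype (edgeR adjusted p = 0.299 without that of VAChT:VGlut and 0.309 without that of VAChT:VGAT). The summed level of the list was 1603 to 1612 CPM in VAChT:VGlut, against 1377 to 1426 CPM in VAChT:VGAT. Of 10 tested pigment and lens genes, 2 were higher and 1 was lower.

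Genes used by neurons in general, photoreceptors included, and markers of other cell types were read in the same way. All 8 neuronal genes were higher in VAChT:VGlut, with a median of 0.25 on the log2 scale and a summed level of 11801 to 12061 CPM, against 10036 to 10139 CPM in VAChT:VGAT. The smallest p-values were those of para, the voltage-gated sodium channel gene (log2 fold change 0.35), fne (0.29), nSyb (0.21) and brp (0.26), and the largest fold change was that of Syx1A (0.46). After the length trend was removed, 4 of the 8 passed. Of 10 tested muscle genes, 8 were higher in VAChT:VGlut, with a median of 0.42 and a summed level of 1783 to 1791 CPM in VAChT:VGlut, against 1336 to 1345 CPM in VAChT:VGAT. The number of muscle genes was 5 without the first VAChT:VGlut library, 4 without the second, and 5 without the first VAChT:VGAT library.

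In the glial, fat body and haemocyte (blood cell) lists, the genes that passed were all lower in VAChT:VGlut by edgeR. Of 10 glial genes, 5 were lower (median log2 fold change -0.19), with a summed level of 2203 to 2300 CPM in VAChT:VGlut, against 2812 to 2834 CPM in VAChT:VGAT. Of 8 fat body genes, 6 were lower (median -0.37), with 27265 to 27894 CPM in VAChT:VGlut, against 33780.2 to 33820.5 CPM in VAChT:VGAT. That sum rests largely on the yolk protein genes Yp1, Yp2 and Yp3, which were among the 6. Their means were 11325, 6932 and 5339 CPM in VAChT:VGlut, against 13550, 8836 and 7004 CPM in VAChT:VGAT. The part of the sex of the flies was not tested. Of 4 tested haemocyte genes, 2 were lower, with 338 to 355 CPM in VAChT:VGlut, against 374 to 385 CPM in VAChT:VGAT. Without the first VAChT:VGAT library the number of haemocyte genes was 0, and without the first VAChT:VGlut library it was 1. No gene of these 5 lists was at 0 in all libraries. The part of these cell types in the result for the cascade genes was not tested.

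**Figure D4:**
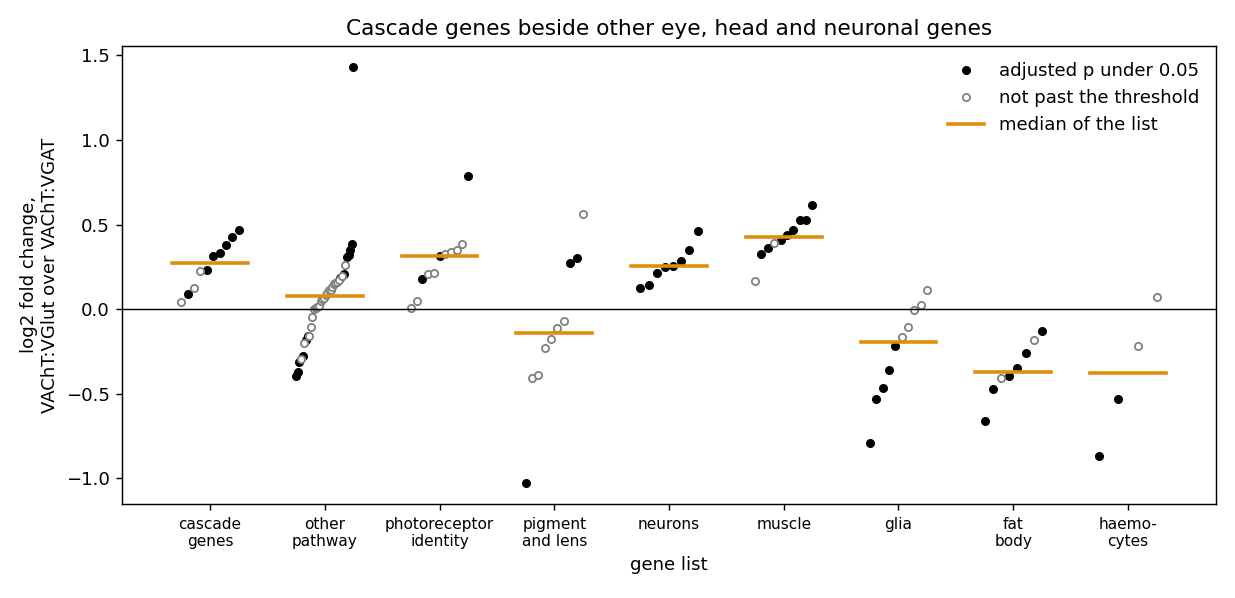
Log2 fold change (VAChT:VGlut over VAChT:VGAT) of each tested gene in 9 lists, sorted within a list, with filled points for genes that passed the test and a bar at the list's median. The medians are 0.27 for the cascade genes, 0.25 for neuronal and 0.42 for muscle genes, and -0.19 for glial and -0.37 for fat body genes.

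Fold changes followed exonic length across the transcriptome, with Spearman rho 0.33 over 8246 genes and medians on the log2 scale of -0.14 among the shortest and 0.10 among the longest, where genes were ranked by length and cut into 4 classes of equal size. Genes are not independent replicates, and all values come from the same 4 libraries. No cascade gene lay in the shortest class, and 1, 4 and 5 lay in the classes that follow by rising length. The longest, rdgA with 12989 exonic bases, also had the largest fold change, and the shortest, Arr2 with 1547, had 0.23. Across the 10 genes rho was 0.52. At the exonic length of each gene the fitted trend was 0.17 on the log2 scale for rdgA, 0.12 for norpA and 0.08 for ninaC. What lies behind the trend was not tested, and long genes included neuronal ones such as para, with 16309 exonic bases. After the trend was removed, 7 of the 10 genes were again higher and none was lower, with a median of 0.26, and Galphaq stood at -0.06. The genes rdgA and norpA lie on the X chromosome, where the median log2 fold change over 1404 tested genes was 0.03.

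**Figure D5:**
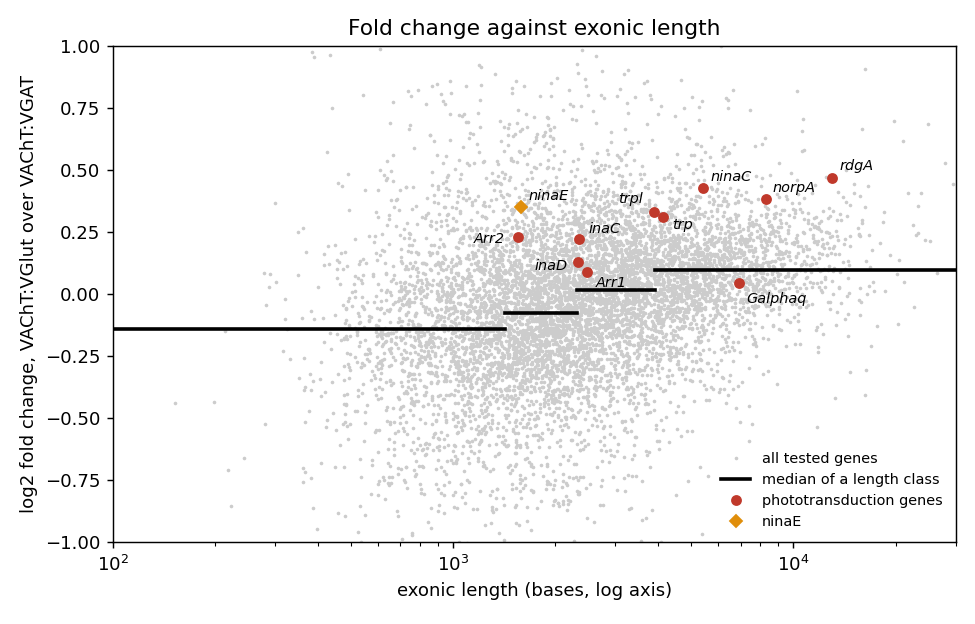
Log2 fold change (VAChT:VGlut over VAChT:VGAT) against exonic length in bases (log axis) for all tested genes, with the cascade genes and ninaE marked and black lines at the median of each of 4 length classes; 150 genes fall outside the axes. The medians run from -0.14 to 0.10, and 9 of the cascade genes lie above the median of their class.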

How the data were processed

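RNA of tagged nuclei from fly heads was profiled in 4 libraries. The authors deposited raw counts of read pairs per gene, made with featureCounts 1.5.1 on the reverse strand over dm6 refGene exons, per the file headers. The submitters' processing notes also name fastp, STAR and DESeq2, and read filters and duplicate removal are not given in the sources used here. Groups and replicate numbers come from the sample titles. The members and lists were chosen with earlier results of these data known, and lists were written from general knowledge.

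The deposited counts were tested with edgeR 4.0.16 (R 4.3.3; quasi-likelihood F test, TMM, genotype only, filterByExpr with minimum count 10 and total 15), two-sided, and adjusted over 8246 genes (Benjamini-Hochberg, threshold 0.05). Standard errors were computed as the absolute log2 fold change over the root of F. Alternatives used DESeq2 1.42.0, limma-voom 3.58.1, other scalings and filters, fixed variation, a replicate block, removal of the length trend, totals without the 20 most abundant genes and each library left out. Fits were also run on counts simulated with the spread estimated from these libraries, which cannot show whether that spread is too low. In each library 3 counts were 1.19 to 1.99 CPM.

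Named were all members and ninaE, any gene of the pathway list, and up to 4 genes with the smallest p-value of other lists. Outside this rule, Syx1A was named for its fold change, cac for its turned sign and eys for its share of a summed level. The medians set against ninaE, the chromosome values and the replicate gaps were described without a test. Replicates differed by more than counting noise (chi-square per degree of freedom 1.22 in VAChT:VGlut and 1.19 in VAChT:VGAT). Positions are given as in the deposited table (dm6), and the spans of all members overlapped those of Ensembl BDGP6 on the same strand.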

Additional observations from a re-analysis of the deposited data

How the results depend on the processing

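Each of the 10 cascade genes was refitted under 16 alternatives, which gave 160 values, of which 158 kept their sign and 137 also their side of the threshold. The exceptions in sign were those of Galphaq, at -0.0606 after the length trend was removed and -0.0392 without the first VAChT:VGlut library (0.144 without the second), and its call was absent throughout. Of 21 lost calls, 14 came from a fixed biological coefficient of variation of 0.1 or 0.2, those of Arr1 included. The other 7 were all of Arr1. The number of cascade genes higher in VAChT:VGlut was 6 or 7 under all alternatives but a fixed variation, where it was 0. For the 57 other genes followed in the same way, signs turned for Gbeta76C (-0.0229 with library size alone, -0.0069 at a mean of 50 counts, -0.0383 without the first VAChT:VGAT library and 0.0544 without the second) and for the neuronal gene cac (-0.0162 after the length trend was removed), and the cause was not tested. The median log2 ratio of the cascade genes to ninaE was -0.0978 to -0.0539 when one library was left out, and 0.0734 against the photoreceptor identity genes.

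Over all genes, calls higher and lower in VAChT:VGlut numbered 228 and 145 with DESeq2, 175 and 143 without its independent filtering, 53 and 133 at a variation of 0.1, and 5 and 19 at 0.2. They numbered 279 to 395 and 234 to 344 when one library was left out, and 305 were higher after the length trend was removed. Among the other pathway genes DESeq2 gave 4 higher and 3 lower, or 3 and 2 unfiltered, and a variation of 0.1 gave 1 and 0. One library left out gave 1 to 4 pathway genes lower.

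Of the photoreceptor identity genes 0 passed with either DESeq2 fit, 1 at a variation of 0.1 and 1 after the length trend was removed. Pigment and lens genes gave 1 higher and 0 lower with either DESeq2 fit, 0 higher at 0.1, 0 lower at a mean of 50 counts, and 1 to 2 in each direction with one library left out. Of the neuronal genes 5 passed with unfiltered DESeq2, 4 after the length trend was removed and 0 at 0.1. Of the muscle genes 3 and 2 passed with DESeq2 and its unfiltered form, 2 at 0.1 and 4 to 7 with one library left out. At 0.1, 2 glial and 1 fat body genes passed. Of the haemocyte genes 1 passed at a mean of 50 counts, 0 with either DESeq2 fit or at 0.1, and 0 to 2 with one library left out. At a variation of 0.2, 0 genes passed in any of these lists and 0 of the driver genes in either direction. A fixed variation changes both the spread assumed and the test.

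Fitted with a replicate block, 567 genes were higher and 482 were lower, and 7 cascade genes were higher. The block ended no call among the cascade genes or the 57 others, and added those of rdgB, PIP82 and oc. Deviations of same-numbered libraries had a correlation of -0.03 across genes, and the labels do not say that a number marks a shared batch, so this pairing is by number only. The 3 cascade genes without a call had the lowest mean counts of the 10, none above 1164 in any library, and the part of depth was not tested.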
